A study of Homo sapiens with 27 samples.

Results

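A symmetric piggyBac transposon moved by a re-engineered transposase was set against a short transposon moved by the wild-type transposase, in HCT116, a human line established from a colorectal carcinoma. The comparison rests on the 3 libraries labelled symmetric with re-engineered piggyBac (sym_rePB) and the 3 labelled short with wild-type piggyBac (short_PB), chosen by those labels, so 6 of the 27 libraries of the series. They list 9169 and 27435 insertion sites, of 5365836 in the whole series. The hyperactive forms of both systems, sym_rehyPB and short_hyPB with 3 libraries each, served as the nearest comparison and share no library with it.

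All of these cells carried a self-reporting transposon, whose own promoter transcribes out of the transposon into the neighbouring DNA, so that an insertion can be read from RNA. All were kept in puromycin at 3 µg/ml for 2 weeks after transfection. The names of the deposited lists mark the short transposon as re67 with le40 and the symmetric one as le40 with le40. Transposon and transposase change together between the groups, so their parts cannot be told apart. The labels do not say whether replicates came from separate transfections, so the spread between replicates may be technical. Cell identity could not be checked against marker genes, because the lists hold insertion positions and no expression.

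As background, piggyBac is a cut-and-paste DNA transposon from a moth. Its transposase binds both transposon ends, cuts the element out and joins it to the target tetranucleotide TTAA, which is duplicated at the new site. In mammalian cells piggyBac is known to insert often near transcription starts and in open chromatin. The natural ends differ from each other in length and in the arrangement of their internal repeats. The study's title names this asymmetry and the phosphorylation of the transposase as its subjects, and the comparison asks how insertions lie when both are altered.

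Insertion targets could be read where a site fell in a RefSeq promoter window of GRCh38.p14, from 250 bases before to 50 bases after a gene's start. Of the sites in such windows, TTAA stood at the expected place for 37 of 39, 39 of 41 and 41 of 42 in sym_rePB replicates 1 to 3 and for 128 of 128, 122 of 122 and 140 of 144 in short_PB. The exact 95% binomial intervals ran from 82.7% to 99.9% over the sym_rePB libraries and from 93.0% to 100% over those of short_PB, so the target was nearly always TTAA in both systems. The letters TTAA, which read the same on both strands, occur in 46.1% of all 34961 promoter windows. The 30 bases around 7 such targets are printed on the plus strand of GRCh38, with the target in capitals. The first pair was hit in all 6 libraries, the next 3 in every sym_rePB and in no short_PB library, and the last pair in every short_PB library but in 1 of sym_rePB.
EFCAB2-AS1, chr1:244971071-244971100: ccattttgcctccTTAAtgaggacgcagga
SF3B1, chr2:197435244-197435273: agccgtaaggtccTTAAgtgagtaactttg
CHMP4A, chr14:24213649-24213678: acatcattttctaTTAAgtaaaaagacagt
HSD17B1-AS1, chr17:42555022-42555051: tgtgggtggctaaTTAAgatagatcgcgtt
LOC101928279, chr4:4761598-4761627: atggagtgcttcaTTAAgatcgcttcaaag
MORC3, chr21:36320062-36320091: actgtaccctgctTTAAccagtcaggcaat
EIF5A, chr17:7306876-7306905: acggactgagggtTTAAagaagatggtgtc

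These examples were chosen after their values were seen. At SF3B1, which encodes a splicing factor subunit, the peak height was 5, 5 and 5 in sym_rePB and 11, 15 and 7 in short_PB. Peak height is the highest read coverage of a peak, and no listed peak was under 5. At MORC3, a nuclear ATPase gene, it was 44, 23 and 14 in short_PB and 6 in the single sym_rePB library that listed it. At CHMP4A, which encodes a subunit of the ESCRT-III membrane-remodelling complex, it was 8, 5 and 5 in sym_rePB. The heights of most sym_rePB sites thus lay next to the lowest height listed, so that a site without a peak in a library is not shown to be free of insertions there. The 5 bases on each side of the targets hit were A or T in 48.2% of positions in sym_rePB (85 targets) and in 48.2% in short_PB (291 targets), against 59.3% around all 26305 TTAA of the windows with that context.

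The symmetric system gave fewer sites. Libraries of sym_rePB listed 3212, 2814 and 3143 sites and those of short_PB 9196, 9027 and 9212, a difference of −1.58 ± 0.06 (SE) on the log2 scale. The file totals, a constant in each list taken here as its mapped reads, ran from 234082 to 255694 in sym_rePB and from 179014 to 210694 in short_PB, so the group with the larger totals had fewer sites. The groups did not overlap, and the two-sided exact permutation test gave p = 0.1, the smallest that 3 against 3 allow, with an adjusted p = 0.136 over 19 measures. That p and that adjusted p are the same for every measure below whose groups did not overlap, unless another value is given.

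Peaks were also lower in the symmetric system. Mean height was 6.73 ± 0.04 (SD, n = 3) in sym_rePB and 8.66 ± 0.31 in short_PB. Sites of height 5 or 6 made up 62.7% to 65.1% of sym_rePB libraries and 43.2% to 47.9% of short_PB libraries. Summed over sites, heights came to 8.41% ± 0.81 of the file total in sym_rePB and 41.7% ± 4.62 in short_PB (SD, n = 3 each). What these differences in peak height, totals and site number contribute to the differences in position was not tested beyond the matched settings given with each result.

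**Figure D1:**
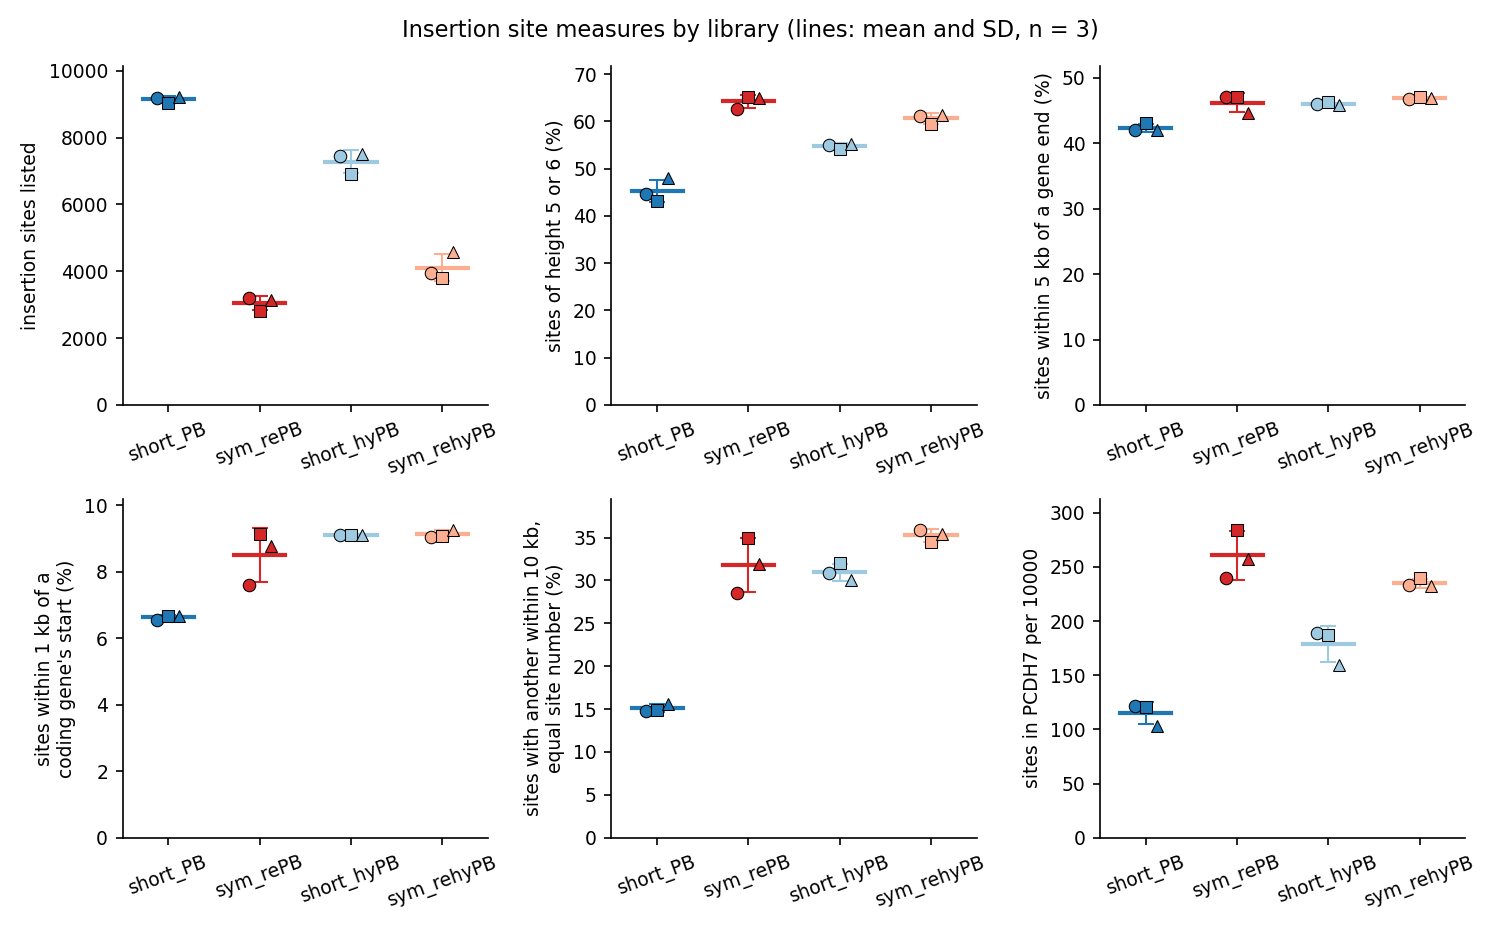
Number of sites, share of sites of height 5 or 6, share within 5 kb of a gene end, share within 1 kb of a coding gene's start, share with a neighbour within 10 kb and sites in PCDH7 per 10000, each against the group, with 1 point per library and lines for the mean and SD (n = 3). The 3 short_PB libraries lie apart from the 3 sym_rePB libraries in all 6 panels. The hyperactive groups lie closer to sym_rePB than to short_PB in the share near coding starts and in the share with a neighbour. For the latter share, libraries were thinned to 2814 sites in the parental groups but to 3801 in the hyperactive groups, and the share moves with site number.

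Sites of the symmetric system recurred at the same base more often. A sym_rePB library had on average 20.9% ± 1.88 (SD, n = 3) of its sites at the same base as another sym_rePB library, against 8.19% ± 0.28 between short_PB libraries. Each pair of libraries enters the values of both its members, so these values are not independent. Sharing was not recomputed for the permuted groups, so the permutation p given above does not account for this dependence. With every library thinned to 2814 sites the shares were 19.3% between sym_rePB libraries, from 17.3% to 21.5% over pairs, and 2.52% between short_PB libraries, from 2.36% to 2.65%. Sites of the symmetric system therefore recurred between replicates at equal site number more often than those of the short system, with no overlap of the pairs.

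Libraries of different groups shared positions as well. At 2814 sites each, sym_rePB and short_PB libraries had 5.33% of sites in common, more than the short_PB libraries had with one another in each of the pairs. Sites of sym_rePB were found in sym_rehyPB libraries at 15.5% and in short_hyPB libraries at 10.99%, while those of short_PB were found there at 4.76% and 4.28%. Without thinning, sym_rePB libraries shared 28.2% of their sites with a short_hyPB library and 20.9% with a replicate of their own group, and short_hyPB libraries hold more sites. Whether shared positions are separate insertions into one target was not tested.

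**Figure D2:**
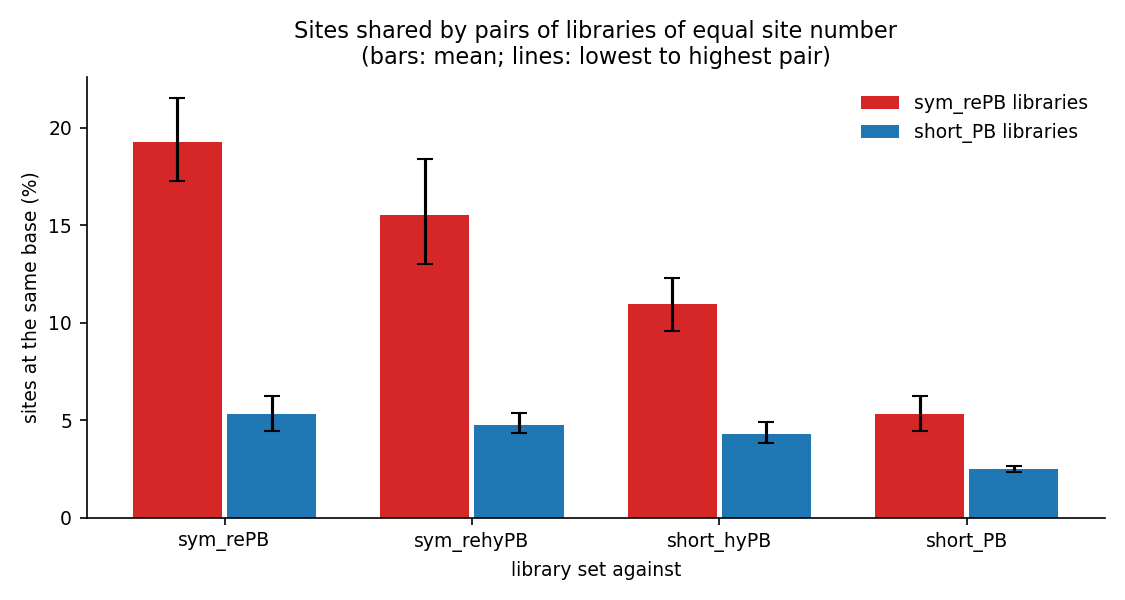
Share of sites at the same base between pairs of libraries, all at 2814 sites, with bars for the mean over pairs and lines from the lowest to the highest pair. Red bars are sym_rePB and blue bars short_PB libraries, set against the 4 groups on the horizontal axis. The red bar falls from 19.3% against sym_rePB to 5.33% against short_PB, and every blue bar lies at 5.33% or lower.

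Counted over libraries, 7611 positions were hit in sym_rePB and 25443 in short_PB. In all 3 sym_rePB libraries 347 positions recurred, and 78.4% of them were also hit in at least 1 short_PB library. In all 3 short_PB libraries 256 positions recurred, of which 66.0% were also hit in sym_rePB. Taken over every library that listed a position, mean height was 6.71 for positions in 1 sym_rePB library. It was 8.02 for those in all 3 sym_rePB and no short_PB library, and 9.70 for those in all 3 short_PB and no sym_rePB library. For the 66 positions hit in all 6 libraries it was 14.7. These means mix the heights of both systems in unlike proportion. Of these 66, 3 lay in PPP3CA, 2 in DLGAP1 and 2 in PCDH7, and 19 other coding genes held 1 each. A set of 75 positions was in all 3 sym_rePB and in no short_PB library, and 88.0% of it was hit in short_hyPB and 81.3% in WT_PB, the deep group with the wild-type transposon and transposase. A set of 87 was in all 3 short_PB and in no sym_rePB library. Of it 90.8% was hit in WT_PB, 65.5% in short_hyPB and 29.9% in sym_rehyPB. The positions of these 2 sets were thus mostly also hit in WT_PB, whose libraries hold more sites. This does not extend to positions seen in a single library. Of those in 1 sym_rePB library 59.0% were hit in WT_PB, and of those in 1 short_PB library 52.4%, whether or not the other system hit them.

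When the sites common to both systems were left out, replicate sharing was 9.91% in sym_rePB and 4.96% in short_PB, a difference of 4.95 points against 12.7 points with them. This removal took 78.4% of positions in all 3 sym_rePB libraries and 21.3% of those in 1. In short_PB it took 66.0% and 6.08%. Libraries were not thinned here, and how much of the fall follows from this unequal removal was not tested.

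Sites of sym_rePB were also packed more closely along the genome. At equal site number, 28.6%, 34.9% and 31.9% of sites in sym_rePB replicates 1 to 3 had another site of the same library within 10 kb, against 14.8%, 14.9% and 15.6% in short_PB. The means were 31.8% ± 3.17 and 15.1% ± 0.46 (SD, n = 3 each). With sites common to both systems left out they were 16.3% and 8.05%, at the smaller equal site number then left. The share moves with site number, so how much of this fall is due to the shared sites was not tested. The 100 windows of 100 kb that held the most sites in WT_PB took up 17.99% ± 0.84 of sym_rePB sites and 9.76% ± 0.41 of short_PB sites. The windows favoured in WT_rePB, the wild-type transposon with the re-engineered transposase, gave 18.3% ± 0.80 and 9.88% ± 0.42. Both sets of windows were thus more filled by the symmetric system. Positions with a peak on both strands made up 0.925% ± 0.21 of sites in sym_rePB and 1.02% ± 0.12 in short_PB, and here the groups overlapped (exact permutation p = 0.7, adjusted p = 0.7).

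Sites of the symmetric system lay more often near gene ends, while the share inside genes overlapped. Inside an annotated gene were 62.0% ± 0.54 of sym_rePB sites and 62.4% ± 0.55 of short_PB sites (SD, n = 3 each, exact permutation p = 0.5, adjusted p = 0.528), and protein-coding genes held 48.0% ± 0.72 and 49.1% ± 0.91. Within 5 kb of either end of a gene were 47.0%, 47.1% and 44.6% of sites in sym_rePB and 42.1%, 43.1% and 42.0% in short_PB, a difference of 3.83 ± 0.88 (SE) percentage points. At heights of 5 and 6, a setting chosen after the data were seen, the shares were 45.8% and 41.0%, and at heights of 7 to 9 they were 46.7% and 41.7%. Among sites of height 10 or more they were 47.2% and 45.4% and the groups overlapped, with 302 to 343 such sites per sym_rePB library. For the tallest sites at equal number they were 45.7% and 44.6%. The difference was thus smaller among the tallest peaks than among those of height 9 or less.

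The start of protein-coding genes, where the promoter lies, showed the same order. Within 1 kb of a start were 7.60%, 9.13% and 8.78% of sites in sym_rePB and 6.56%, 6.66% and 6.68% in short_PB, a difference of 1.87 ± 0.47 (SE) points. Starts were known for 15812 of 19974 coding genes. In 1-kb steps the largest share fell just upstream of the start in both systems, at 5.76% ± 0.51 in sym_rePB and 4.33% ± 0.13 in short_PB (SD, n = 3 each). The next step upstream held 3.71% ± 0.36 and 2.70% ± 0.24, and the first step into the gene 2.73% ± 0.32 and 2.29% ± 0.10. Within 1 kb of the other end of a coding gene were 2.75% ± 0.07 and 2.29% ± 0.34. For sites of height 10 or more the share within 1 kb of a start was 8.39% in sym_rePB and 8.05% in short_PB. For the tallest sites at equal number it was 8.43% and 7.76%, so the difference shrank from 1.87 to 0.33 and 0.68 points in these settings.

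**Figure D3:**
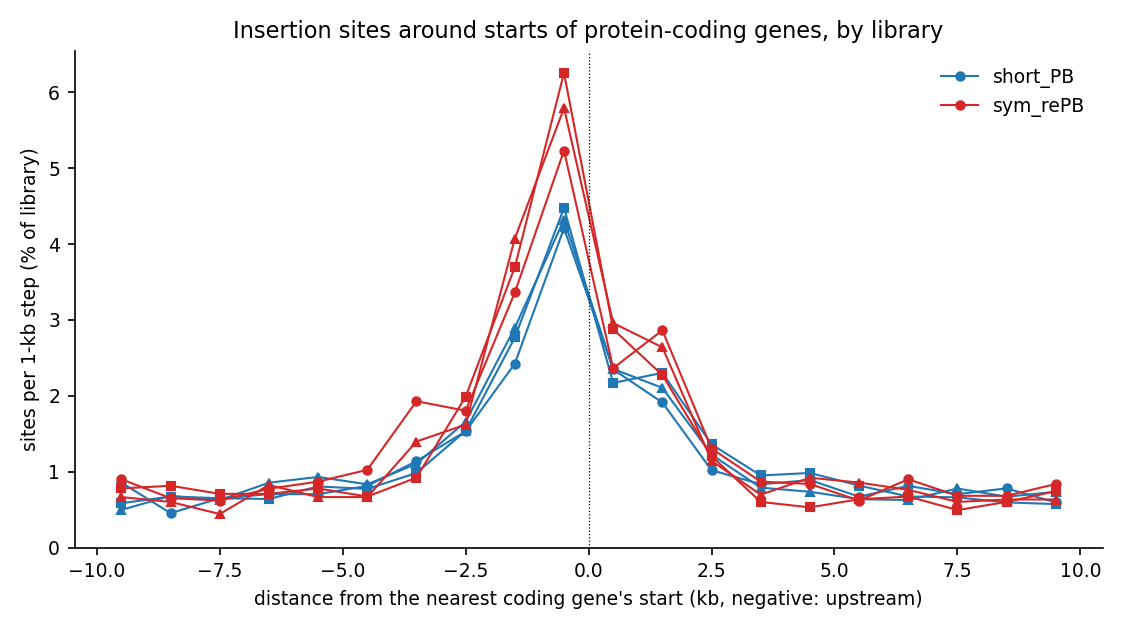
Share of a library's sites per 1-kb step of distance from the nearest start of a protein-coding gene, negative upstream, with 1 line per library. Both systems peak in the step just upstream of the start, at a mean of 5.76% in the red sym_rePB lines and 4.33% in the blue short_PB lines, and they run together beyond about 5 kb.

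Sites more than 100 kb from every coding gene made up 7.81% ± 0.44 of sym_rePB libraries and 9.10% ± 0.14 of short_PB libraries (SD, n = 3 each), a difference of −1.29 points. Among sites of height 10 or more the order turned, with 10.1% in sym_rePB and 8.11% in short_PB. Of the sites in coding genes with a known strand, 42.5% ± 1.22 and 41.0% ± 1.61 lay in the sense of the gene, and the groups overlapped (exact permutation p = 0.2, adjusted p = 0.237).

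The length of the gene hit differed too, in classes set after the data were seen and not tested. Coding genes of up to 50 kb held 13.9% ± 0.79 of sym_rePB sites and 12.2% ± 0.09 of short_PB sites (SD, n = 3 each). Genes over 500 kb held 2.49% ± 0.12 and 3.65% ± 0.10. The groups did not overlap in either class. The 11 genes in the top 10 of either system were 134.6 to 959.3 kb long. Without them, genes of 200 to 500 kb held 6.49% ± 0.32 and 9.66% ± 0.56 of the remaining sites. Long genes outside that top thus took a smaller share in the symmetric system.

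Along the genome, 513 bins of 5 Mb had a mean of at least 3 sites per 10000 over the 6 libraries, and limma called 17 of them at an adjusted p under 0.05, which is 3.31% of those tested. Of these, 11 were higher in sym_rePB (2.14%) and 6 lower (1.17%). The median log2 difference over all bins was −0.32, and with the median bin as scale 17 bins were higher and 4 lower. When all libraries were thinned to 2814 sites no bin was called by limma, and 75 of 500 had an unadjusted p under 0.05. Leaving out short_PB replicate 1, 2 or 3 left 4, 2 and 9 calls, and leaving out sym_rePB replicate 1 or 3 gave 44 and 33. The groups did not overlap in 160 of the 513 bins (31.2%).

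The 6 largest rises lay on chromosomes 1, 4, 8, 18 and 19. The bin from 30 to 35 Mb of chromosome 4, which holds PCDH7, had 240, 295 and 264 sites per 10000 in sym_rePB and 126, 126 and 112 in short_PB (log2 difference 1.12 ± 0.12 (SE), limma adjusted p = 0.000794). Without the sites in PCDH7 itself this bin held 5.83 and 6.26 sites per 10000, so its rise lay within that gene. The bin from 90 to 95 Mb of chromosome 8 had 128, 128 and 121 against 50.02, 48.7 and 59.7 (log2 difference 1.24, adjusted p = 0.000829). The first 5 Mb of chromosome 19, which hold 201 coding genes, had 99.6, 78.2 and 124 against 37.0, 41.0 and 42.3 (log2 difference 1.29, adjusted p = 0.00393). The first 5 Mb of chromosome 18, with DLGAP1, rose by 1.14, the bin from 5 Mb of chromosome 1 by 0.89 and the bin from 125 Mb of chromosome 8 with NSMCE2 by 0.85 (limma adjusted p from 0.00393 to 0.0155). At height 10 or more the change in the first 5 Mb of chromosome 19 was −0.67 and not called.

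Of the 6 bins that fell, 5 had no site in any sym_rePB library. These 5 reached the mean needed for a test only through short_PB, the group where they were high, and with that mean set at 6 per 10000 limma called 2 bins lower in place of 6. A floor of 3 sites over the group stands for a count of 0 there, which is 3.27 per 10000. The bin from 80 to 85 Mb of chromosome 6, with the malic enzyme gene ME1, had 13, 13 and 10 sites in short_PB and was at least 4.01-fold lower in sym_rePB. The bin from 85 Mb of chromosome 5, with MEF2C, had 8, 8 and 10 sites and was at least 2.90-fold lower. Those from 90 Mb of chromosome 4, from 100 Mb of chromosome 5 and from 35 Mb of chromosome 13 were at least 2.90-, 2.23- and 2.11-fold lower. The bin from 15 Mb of chromosome 6, with ATXN1 and JARID2, had 1, 2 and 0 sites in sym_rePB and 25, 23 and 19 in short_PB (log2 difference −3.09 ± 0.74 (SE), limma adjusted p = 0.0488). The fold bounds take the short_PB mean as it stands, without its counting error. Of all 619 bins, 74 had no site in sym_rePB and 43 had none in short_PB. For the 5 bins without a sym_rePB site, being low in every sym_rePB library follows from that selection and adds no support.

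Gene-rich regions carried a larger share in the symmetric system. The 513 tested bins were split into 3 sets of 171 by their number of coding genes. The median log2 difference was −0.74 in the set with the fewest, −0.32 in the middle set and 0.01 in the set with the most. The log2 of a bin with few or no sites depends on the prior. Over all tested bins the median was −0.32 as reported and −0.25 with a prior of 2. When all bins were split in the same way, those with the most coding genes held 55.2%, 52.5% and 53.8% of sym_rePB sites and 49.7%, 49.6% and 51.0% of short_PB sites, and the groups did not overlap. Those with the fewest held 13.3% ± 0.62 and 14.7% ± 0.27, and those in the middle 32.9% ± 0.72 and 35.2% ± 0.58 (SD, n = 3 each). The summed share of the gene-poor bins thus fell by much less than their median log2 difference. These shares were not tested.

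**Figure D4:**
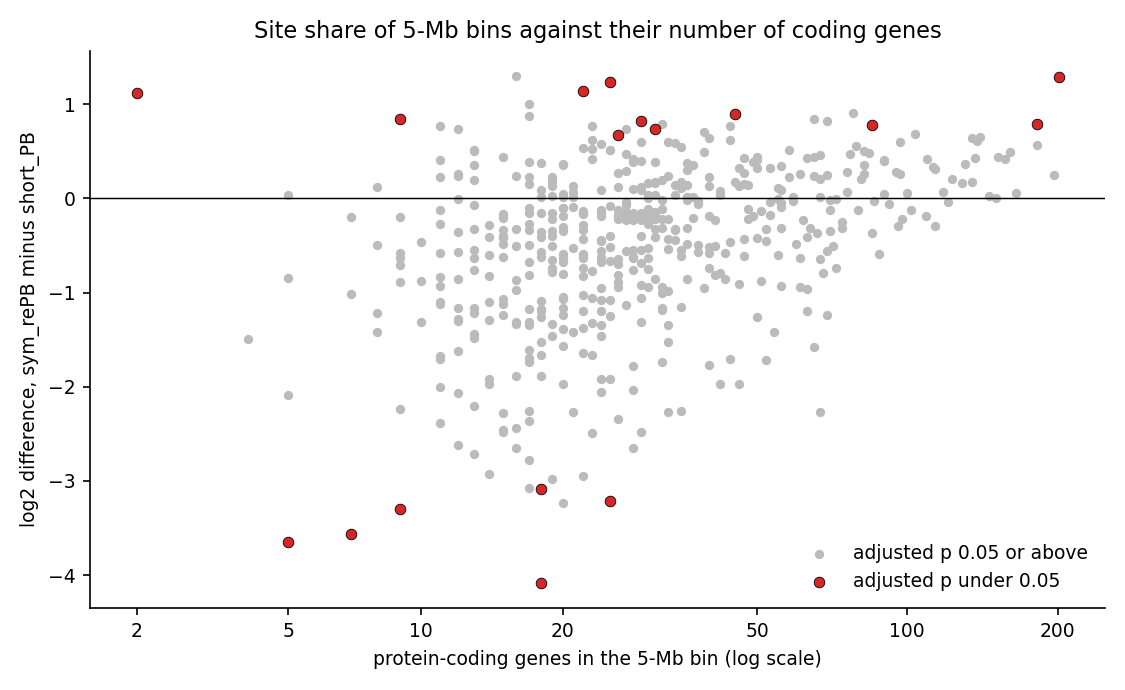
Log2 difference in sites per 10000 between sym_rePB and short_PB for each of the 513 tested 5-Mb bins, against the number of coding genes in the bin (log scale), with the 17 called bins in red. Points at few coding genes lie mostly below 0, with a median of −0.74 in the set with the fewest, and those at many coding genes around 0. Summed over all bins with the fewest coding genes, the shares were closer, at 13.3% of sym_rePB and 14.7% of short_PB sites.

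By chromosome, limma called 8 of 23 (34.8%). Chromosome 19 rose by 0.62 ± 0.08 (SE) on the log2 scale (440 ± 36.5 against 285 ± 8.22 sites per 10000, SD, n = 3), the largest rise, with an adjusted p = 0.000523. Chromosomes 22, 17 and 8 rose by 0.41, 0.36 and 0.22. Chromosomes X, 13, 5 and 2 fell by 0.81, 0.77, 0.41 and 0.22. The chromosomes with the largest changes thus included 19, 17 and 22, known for their many genes, on the higher side and 13 and X on the lower. With the median chromosome as scale 8 were higher and 3 lower, and at height 10 or more none was called by limma, with 9 at an unadjusted p under 0.05. The groups did not overlap in 12 of the 23 (52.2%).

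Among genes, the same ones led both systems at different levels: of the 10 coding genes with the most sites per 10000 in sym_rePB and the 10 in short_PB, 9 were in both lists. Of 19974 coding genes 157 had a mean of at least 3 sites per 10000, and limma called 14 (8.92%), 13 higher (8.28%) and 1 lower (0.637%). The median log2 difference of these 157 was 0.68. A single site weighs more in the smaller sym_rePB libraries, so a gene reached that mean more easily through sym_rePB. With the median gene as scale limma called none (29 at an unadjusted p under 0.05). Without any filter it called 1 of 6704, and with all libraries at 2814 sites 2 of 156. The groups did not overlap in 50 of the 157 (31.8%). Leaving out short_PB replicate 2 left 3 calls and leaving out sym_rePB replicate 1 left 9.

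PCDH7, a protocadherin of cell adhesion (chr4:30720369-31146800 on GRCh38), was first in both systems. It held 240, 284 and 258 sites per 10000 in sym_rePB and 122, 121 and 103 in short_PB, which is 77, 80 and 81 sites against 112, 109 and 95. All sym_rePB libraries were above all short_PB libraries. The log2 difference was 1.17 ± 0.08 (SE, limma adjusted p = 7.41e-09), and 0.55 relative to the median gene (adjusted p = 0.162). It was 1.08 at equal site number (adjusted p = 0.0214). The rise of PCDH7 was thus in its share of a library's sites, while its number of sites was lower in each sym_rePB library, and it did not pass against the median of the tested genes. Inside the gene the steps from 50 to 150 kb after its start held the most sites in each library, with 34, 44 and 42 sites in sym_rePB and 64, 59 and 51 in short_PB. Exons and introns were not told apart here.

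VTI1A, a SNARE of endosomal and Golgi transport (chr10:112446988-112855368), was the runner-up in both. It held 93.4, 74.6 and 89.1 sites per 10000 in sym_rePB and 33.7, 39.9 and 39.1 in short_PB (log2 difference 1.17 ± 0.16 (SE), limma adjusted p = 3.18e-05). DLGAP1, a scaffold protein of the postsynapse, ranked 3 in sym_rePB and 8 in short_PB, with 71.6, 74.6 and 57.3 against 20.7, 23.3 and 26.1 (log2 difference 1.504 ± 0.19, adjusted p = 3.07e-05). In both genes the libraries of the 2 systems lay apart by more than the spread within either.

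Of the other leading genes 5 rose and 3 did not pass. NSMCE2, a SUMO ligase of the SMC5/6 complex, had 49.8, 53.3 and 66.8 sites per 10000 in sym_rePB and 30.4, 19.9 and 30.4 in short_PB (log2 difference 1.06, limma adjusted p = 0.00333). MPP7, a polarity scaffold, rose by 1.02 and PPP3CA, the catalytic subunit of calcineurin, by 0.84 (adjusted p = 0.00417 and 0.0138). VMP1, a membrane protein of autophagy, rose by 1.40 from 13.5 ± 3.79 to 36.2 ± 5.68, and MTHFD1L, a mitochondrial folate enzyme, by 1.21 (SD, n = 3, limma adjusted p = 0.00333 and 0.00842). PHLDB2, which anchors microtubules at the cell cortex, had 44.7 ± 2.70 and 34.6 ± 2.71, and PALLD, an actin-binding protein, 35.9 ± 7.51 and 24.4 ± 1.40 (limma adjusted p = 0.212 and 0.142). PDE4B, a cAMP phosphodiesterase, had 26.5 ± 9.43 and 17.5 ± 5.81 and overlapped between groups (adjusted p = 0.299). Relative to the median gene PHLDB2, PALLD and PDE4B lay at −0.26, −0.10 and −0.06.

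The largest log2 differences were in genes with few sites. AP3D1, a subunit of the AP-3 adaptor, had 2, 3 and 3 sites in sym_rePB and 2, 1 and 1 in short_PB, which is 8.81 ± 2.31 and 1.46 ± 0.62 per 10000 (SD, n = 3, log2 difference 2.08, limma adjusted p = 0.0168). LOC400499 had 3, 4 and 2 sites against 2, 1 and 3, and PC, the pyruvate carboxylase gene, 3, 3 and 4 against 3, 4 and 1 (log2 differences 1.85 and 1.76, adjusted p = 0.0304 and 0.0314). SYTL3, a Rab27-binding protein, rose by 1.64 and WWTR1, the Hippo pathway coactivator TAZ, by 1.57 (adjusted p = 0.00979 and 0.0197). For AP3D1, LOC400499 and PC the counts themselves were similar and the difference rests on the smaller number of sites in the sym_rePB libraries. In short_PB these 3 genes had means of 1.46, 2.18 and 2.93 per 10000, under the 3 needed for a test. They were tested only through sym_rePB, the group where they were high, so their adjusted p values carry that selection.

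SKAP1, an adaptor of T-cell receptor signalling, was the 1 gene called lower. It reached the mean needed for a test only through short_PB, and with that mean set at 6 per 10000 no gene was lower by limma and 13 of 48 were higher (19 at an unadjusted p under 0.05 in either direction). It had 0, 1 and 0 sites in sym_rePB and 8, 9 and 7 in short_PB, which is 1.18 ± 2.05 and 8.76 ± 1.19 per 10000 (SD, n = 3, log2 difference −2.73 ± 0.72 (SE), limma adjusted p = 0.0195). ZBTB20, a zinc finger repressor, had 9.34, 14.2 and 3.18 in sym_rePB and 10.9, 9.97 and 13.03 in short_PB, and the groups overlapped (adjusted p = 0.456).

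**Figure D5:**
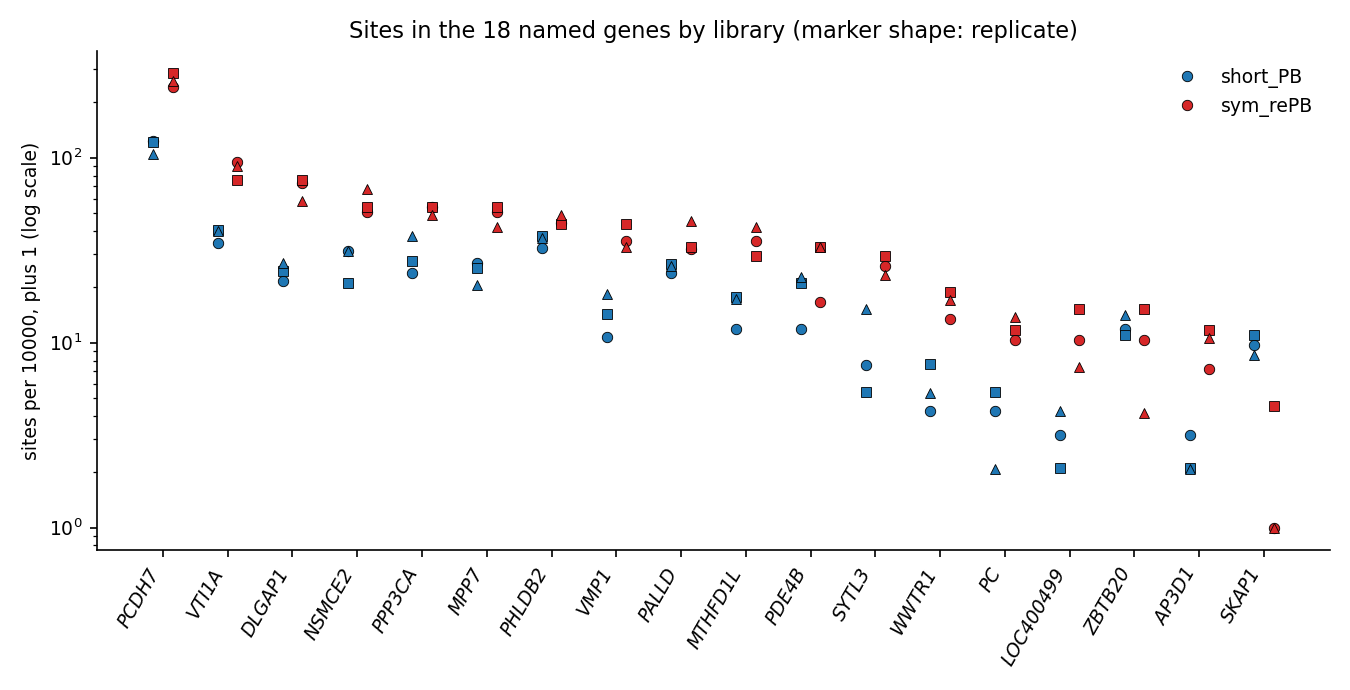
Sites per 10000, plus 1 and on a log scale, in each of the 18 named genes, with blue points for the 3 short_PB and red points for the 3 sym_rePB libraries and marker shapes for replicates. PCDH7 stands highest in both systems, red points lie above blue ones in most genes, and SKAP1 shows the opposite order.

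Fixed gene lists were read as summed sites per 10000, beside the 31.8% of tested genes whose groups did not overlap. Few members of these lists reached the mean needed for a test, among them TCF7L2, MET, CDCP1, PCDH7 and SMAD3, and of all members tested limma called PCDH7 alone. The 26 common fragile site genes, very long genes prone to breaks under replication stress, held 3.11, 14.2 and 9.55 in sym_rePB and 35.9, 15.5 and 39.1 in short_PB. In 17 of the 22 with a site in any of the 6 libraries sym_rePB had none, and each of these 17 was also under the sym_rePB floor in short_PB, so single members could not be compared. The 36 long neuronal genes held 6.23, 0 and 3.18 in sym_rePB and 18.5, 15.5 and 14.1 in short_PB. Both lists of long genes were lower in every sym_rePB library.

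The 41 coactivators and chromatin regulators also held fewer sites in sym_rePB, with 18.7, 17.8 and 9.55 against 29.4, 25.5 and 33.7. Of the 29 with a site in any of the 6 libraries 17 had none in sym_rePB, and 16 of these 17 were also under the sym_rePB floor of 3.27 in short_PB, so single members could not be compared. A further 2 had none in short_PB. The tumour suppressors and cell-cycle brakes were higher, with 24.9, 32.0 and 22.3 in sym_rePB against 11.96, 19.9 and 17.4. SMAD3, which carries TGF-beta signals, held 12.2 ± 4.81 and 7.31 ± 3.43 of these and was not called (limma adjusted p = 0.310). These 2 lists also did not overlap between the groups. The protocadherin list was carried by PCDH7, and without it held 2.10 in sym_rePB and 3.63 in short_PB.

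The other 5 lists overlapped between groups. Wnt pathway genes held 16.2 ± 4.86 in sym_rePB and 21.5 ± 2.53 in short_PB, with TCF7L2, the main Wnt transcription factor of the gut, at 6.29 ± 5.45 and 7.67 ± 2.27. Growth factor receptor, RAS and PI3K genes held 33.7 ± 6.10 and 26.6 ± 6.90, with the receptor gene MET at 14.2 ± 1.42 and 7.28 ± 5.12 (SD, n = 3, limma adjusted p = 0.125). Gut epithelial transcription factors held 11.6 ± 11.6 and 12.8 ± 0.72, epithelial adhesion genes 16.2 ± 5.83 and 16.0 ± 8.24, and AP-1 and early response genes 10.8 ± 4.58 and 10.95 ± 2.98. Of the 390 olfactory receptor genes none had a site in sym_rePB, and short_PB had 5, 2 and 1 sites. HOX genes held 2, 5 and 5 sites in sym_rePB and 6, 4 and 6 in short_PB, which is 13.3 ± 6.197 and 5.82 ± 1.21 per 10000 (SD, n = 3), and the groups overlapped.

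The same step from the short to the symmetric system was available with the hyperactive transposases. The difference between both steps was tested by permutation of system labels within each transposase (400 arrangements, smallest p = 0.005). Before it, the mean of both steps was subtracted from the symmetric libraries, so this permutation is approximate and not exact. Of 19 measures 15 passed an adjusted p under 0.05 (78.9%). The number of sites fell by 1.58 on the log2 scale in the parental and by 0.83 in the hyperactive pair (adjusted p = 0.00731). Replicate sharing rose by 12.7 points in the former and was 20.9% ± 1.36 in sym_rehyPB and 23.5% ± 0.93 in short_hyPB in the latter (SD, n = 3, permutation, adjusted p = 0.00731). These shares were not thinned, and they depend on site number. Each pair of libraries enters the values of both its members, a dependence for which this adjusted p does not account. Mean site numbers were 3056 and 9145 in sym_rePB and short_PB and 4107 and 7281 in sym_rehyPB and short_hyPB. The difference between the steps in sharing at equal site number was not tested. Clustered sites differed by 16.7 and 4.32 points and sites in PCDH7 by 145 and 56.0 per 10000 (adjusted p = 0.00731 for both). The clustered share was taken at 2814 sites per library in the parental pair and at 3801 in the hyperactive pair. It moves with site number, so these steps were not measured at equal number. The gene-end share differed by 3.83 and 0.87 points (adjusted p = 0.0136) and the share near coding starts by 1.87 and 0.02 points (adjusted p = 0.019). The step was thus larger in the parental pair for these measures. The share far from coding genes differed by −1.29 and −1.72 points (adjusted p = 0.302).

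Of 511 bins tested for the same difference limma called 6 (1.17%), all with a larger rise in the parental pair, and 55 had an unadjusted p under 0.05. They were the same 6 bins that had the largest rises. The difference tested contains the parental rise by which those bins were ranked, so this overlap adds no separate support. In the bin of PCDH7 the hyperactive libraries held 198, 193 and 168 sites per 10000 with the short and 241, 245 and 239 with the symmetric system. In the bin from 5 Mb of chromosome 1 they held 91.4, 85.6 and 95.9 with the short and 70.9, 81.6 and 81.0 with the symmetric system, against 54.98 ± 7.49 and 103 ± 14.1 in the parental pair (SD, n = 3). In this bin the hyperactive libraries were thus lower with the symmetric system. At equal site number limma called none of 499 bins, with 41 at an unadjusted p under 0.05.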

How the data were processed

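Each of the 27 libraries (9 groups of 3) came as 1 peak list. The authors deposited, without header, the summed coverage and the highest coverage (height) of each peak, both signal values not scaled to depth, with peak width and a constant taken here as mapped reads. Per the submitters' processing notes, cutadapt 3.4 and HISAT2 2.2.1.0 were used on hg38 (GRCh38.p5); the peak caller and any removal of duplicates are not given in the sources used here. Since the reads are PCR copies that carry no molecular tag, intervals and floors cover counting error only.

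A site was the peak's edge where its reads begin, shifted by 3 bases on the minus strand, counted once per library. Genes and sequences came from RefSeq (GRCh38.p14). Measures per library were compared by two-sided exact permutation with Benjamini-Hochberg adjustment over 19 (11 planned, 8 added). Bins, genes and chromosomes were tested with limma 3.58.1 (R 4.3.3, trend) on log2 sites per 10000 with a prior of 0.5 and a filter at a mean of 3 per 10000. Tests were tried on simulated data: for bins 65.3% of 4-fold and 21.4% of 2-fold changes were recovered, for genes 9.70% and 0%. The spread of the simulated counts was set and not estimated from these libraries, so these rates hold for that setting only. Adjusted p is Benjamini-Hochberg throughout.

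Named genes were the 10 with the most sites in each system, called genes and bins with the largest changes and no overlap of groups, list members past the threshold, and PCDH7, VTI1A and ZBTB20. Members and lists were chosen with earlier results of these data known. One list member is not reported here. Alternatives covered peak height, site number, depth, scale, filter, prior, bin size, replicates left out and the replicate number as a block.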

Additional observations from a re-analysis of the deposited data

Results flagged for a closer look

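In these results the step from the short to the symmetric system differed between the parental and the hyperactive transposases. Each value is the parental difference (sym_rePB minus short_PB) minus the hyperactive one (sym_rehyPB minus short_hyPB). Measures were tested by the approximate permutation described above, over 400 arrangements.

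The number of sites gave −0.75 on the log2 scale, sites per 1000000 of the file total −24039, median height −1 and mean height −1.39. Summed heights as a share of the file total gave −23.6 points. Replicate sharing gave 15.3 points, clustered sites 12.4 points and sites in PCDH7 89.4 per 10000. The 100 windows favoured in WT_PB and in WT_rePB gave 5.76 and 5.96 points. All of these had a permutation p = 0.005, the smallest possible, and an adjusted p = 0.00731. Replicate sharing was not thinned, and clustered sites were taken at 2814 sites per library in the parental and 3801 in the hyperactive pair. For these 2 measures site number and position are therefore not separated. The values of replicate sharing are also not independent, since each pair enters both its libraries, and the permutation p does not account for this.

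The gene-end share gave 2.96 points and the share near coding starts 1.85 points (permutation, adjusted p = 0.0136 and 0.019). The share inside coding genes gave −3.12 points and that in noncoding genes only 1.79 points, although neither stood apart between sym_rePB and short_PB. The share of positions with peaks on both strands gave 0.91 points, from −0.10 in the parental and −1.01 in the hyperactive pair (these 3 with adjusted p = 0.00731).

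In 6 bins of 5 Mb limma called the same kind of difference. On the log2 scale it was 1.12 from 5 Mb of chromosome 1, 0.75 from 30 Mb of chromosome 4, 0.88 from 90 Mb and 0.83 from 125 Mb of chromosome 8, 0.91 at the start of chromosome 18 and 0.99 at the start of chromosome 19. The adjusted p ran from 0.00401 to 0.0445.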

How the results depend on the processing

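All differences in site number, sites per file total, height, gene-end share, coding start share, replicate sharing, clustered share and PCDH7 share kept their direction in every setting run for them. The exceptions among the other measures follow, and the cause was not tested. The share inside genes turned to 0.095 points with the tallest sites at equal number and to 0.34 with sites of both systems left out. The share far from coding genes turned to 2.03 at height 10 or more. The both-orientation share turned to 1.26 at height 10 or more, and ran from −0.20 to 0.0066 as libraries were left out.

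Counts of calls moved by more than 1.5 times as follows. Bins, 17 as reported, gave 36 at 10 Mb, 48 with heights thinned to equal totals, 32 with voom, 167 at height 10 or more (16 higher, 151 lower), 34 with a prior of 2, 11 with the replicate block, 2 with the tallest sites, 0 at equal site number and 2 to 44 without single libraries. Genes, 14 as reported, gave 3 with the filter at 1 per 10000, 25 with 5 kb on each side, 56 with heights thinned, 40 with voom, 0 with the median as scale, 1 without filter, 3 at height 10 or more, 1 with the tallest sites, 2 at equal site number and 3 to 18 without single libraries. Chromosomes, 8 as reported, gave 0 at height 10 or more and 1 with the tallest sites (6 to 12 without single libraries). The 6 bins that differed from the hyperactive pair became 1 at height 10 or more, 1 with sites of both systems left out, 2 with the tallest sites, 0 at equal site number and 3 to 8 without single libraries. The cause of these moves was not tested. With the replicate block, genes gave 16, chromosomes 10 and the difference from the hyperactive pair 7. Deviations of same-numbered libraries correlated at 0.046, 0.013 and −0.0050 over bins and at 0.0021, −0.149 and −0.0092 over genes. Between libraries of unlike number they ran from −0.111 to 0.118 over genes. Such correlations of low counts cannot show whether same-numbered libraries shared a transfection or a batch, which the labels do not give.

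Of the named features these turned. PHLDB2, PALLD and PDE4B went to −0.26, −0.097 and −0.059 with the median as scale. At height 10 or more PALLD went to −1.47, PC to −0.032 and the first bin of chromosome 19 to −0.67. ZBTB20 went to 0.69 with the tallest sites, 0.37 at equal site number, and ran from −0.93 to 0.037 as libraries were left out, above 0 without sym_rePB replicate 3. AP3D1 went to −0.37 with the tallest sites, and the bin from 30 Mb of chromosome 4 to −0.72 without sites in PCDH7.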
